A study of Homo sapiens with 6 samples.

Results

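The genes described here make, sense and export sterols and make fatty acids, in HT-1080 cells treated with an inhibitor of the kinase IRAK4 or with solvent. They are 39 genes chosen by symbol and pathway role: 25 sterol genes, 10 fatty acid genes and 4 genes of the liver X receptor (LXR) and cholesterol efflux. The choice was made with earlier results of these data known. All 39 were found among the 20683 gene symbols of the count files, and 37 had enough counts to be tested. HT-1080 is an established human fibrosarcoma line, here grown as a monolayer in medium with 10% foetal bovine serum. For 24 h, 3 cultures received SLV-8472-01, a compound known here by its code name and labelled as an IRAK4 inhibitor at 5 mM (the unit is as labelled and could not be verified), and 3 control cultures received 0.1% DMSO. The series describes the 3 libraries per group as biological replicates. All of them come from 1 cell line, 1 concentration and 1 time point.

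Cholesterol is made from acetyl-CoA through mevalonate, isoprenoid and squalene intermediates. When the endoplasmic reticulum is low in sterol, SCAP carries the SREBP transcription factors to the Golgi, where they are cleaved and released to switch on this pathway and, in part, fatty acid synthesis; when sterol is plentiful, INSIG proteins hold SCAP back. Oxysterols activate LXR, which switches on efflux genes such as ABCA1, so that in textbook physiology synthesis and efflux genes respond to sterol in opposite directions.

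RNA was read with an amplicon panel, in which each gene is counted through a short PCR product, so levels are compared here between libraries for the same gene and not between genes. Levels are given as CPM, each count as a rate per 1e+06 counts of the TMM-scaled library, and changes as log2 fold changes of inhibitor over DMSO with an SE. Library totals lay between 9162281 and 13184553 counts. The library DMSO 3 stood apart from its group, with a median absolute log2 difference of 0.317 and 0.248 from DMSO 1 and DMSO 2, against 0.156 between those and 0.122 to 0.130 among the inhibitor libraries. Over 9189 genes (genes are no independent replicates), how far DMSO 3 lay from the DMSO mean followed transcript GC content with Spearman rho = -0.491, against 0.536 for DMSO 1 and 0.127 for DMSO 2. Deviations from a shared mean cancel out within each gene, so these correlations are tied together and do not show which library has the GC trend. Of 10 mesenchymal markers 9 were tested, with VIM, the vimentin gene, between 5315 and 6458 CPM, while THY1 had a single count in all. Summed, they held 8949 to 9287 CPM with inhibitor and 8672 to 9792 CPM with DMSO. None passed, but 8 of the 9 had a log2 fold change below 0 (median -0.16), as had 5673 of all 11216 tested genes. In 5 every inhibitor value lay below every DMSO value, against 11.8% of all tested genes. FN1, TGFBI and MMP14 had an unadjusted p under 0.05 by edgeR, against 19.5% of all tested genes in either direction. The 5 epithelial markers summed to 1.55 to 2.32 CPM with inhibitor and 0.901 to 1.37 CPM with DMSO, most of it CLDN4, with 51 counts against 25 and no overlap (log2 fold change 1.10, SE 0.369, edgeR adjusted p = 0.115), while CDH1 was at 0. The 5 blood and endothelial markers summed to 0.802 to 2.21 and 0.782 to 1.46 CPM, nearly all PECAM1, with PTPRC and CD3E among those at 0. The 3 hepatocyte markers reached at most 0.357 and 0.0761 CPM, from APOA1, with ALB and TTR at 0. Whether these marker levels bear on the members was not tested. In bulk RNA, fewer cells with a transcript and less of it per cell cannot be told apart.

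With inhibitor 6 sterol genes rose, IDI1 furthest among them, while ABCA1, the main cholesterol exporter gene, fell to a fold of 0.437. Of the 25 sterol genes, 6 rose and none fell at a Benjamini-Hochberg adjusted p under 0.05 by edgeR's quasi-likelihood test. At an unadjusted p under 0.05 there were 10, each with a value above 0, where 19.5% of all tested genes were under 0.05 and 10.3% were so with a value above 0. DESeq2 and limma-voom each called 6 higher and none lower. Over all 11216 tested genes the same rule called 1.95% higher and 1.92% lower. The sterol genes had a median log2 fold change of 0.22, with 20 of 25 above 0, against a median of -0.00438 over all tested genes. In 10 of the 25 the 3 inhibitor values all lay above the 3 DMSO values, and in none all below, against 13.7% above and 11.8% below over all tested genes. Since the list was chosen with earlier results of these data known, these shares describe it and are no independent test. The count of risers changed when single libraries were left out. It was 1 without inhibitor 1, 2 or 3 (where 0.432%, 0.334% and 0.607% of all genes were higher). It was 5 without DMSO 1 (196 of 11318 genes), 3 without DMSO 2 (0.645%) and 12 without DMSO 3 (10.8%), when 1 sterol gene was also lower (11.1%). Without inhibitor 1, 2 or 3 the sterol median was 0.26, 0.27 and 0.24, against 0.22 with all 6 libraries.

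**Figure D1:**
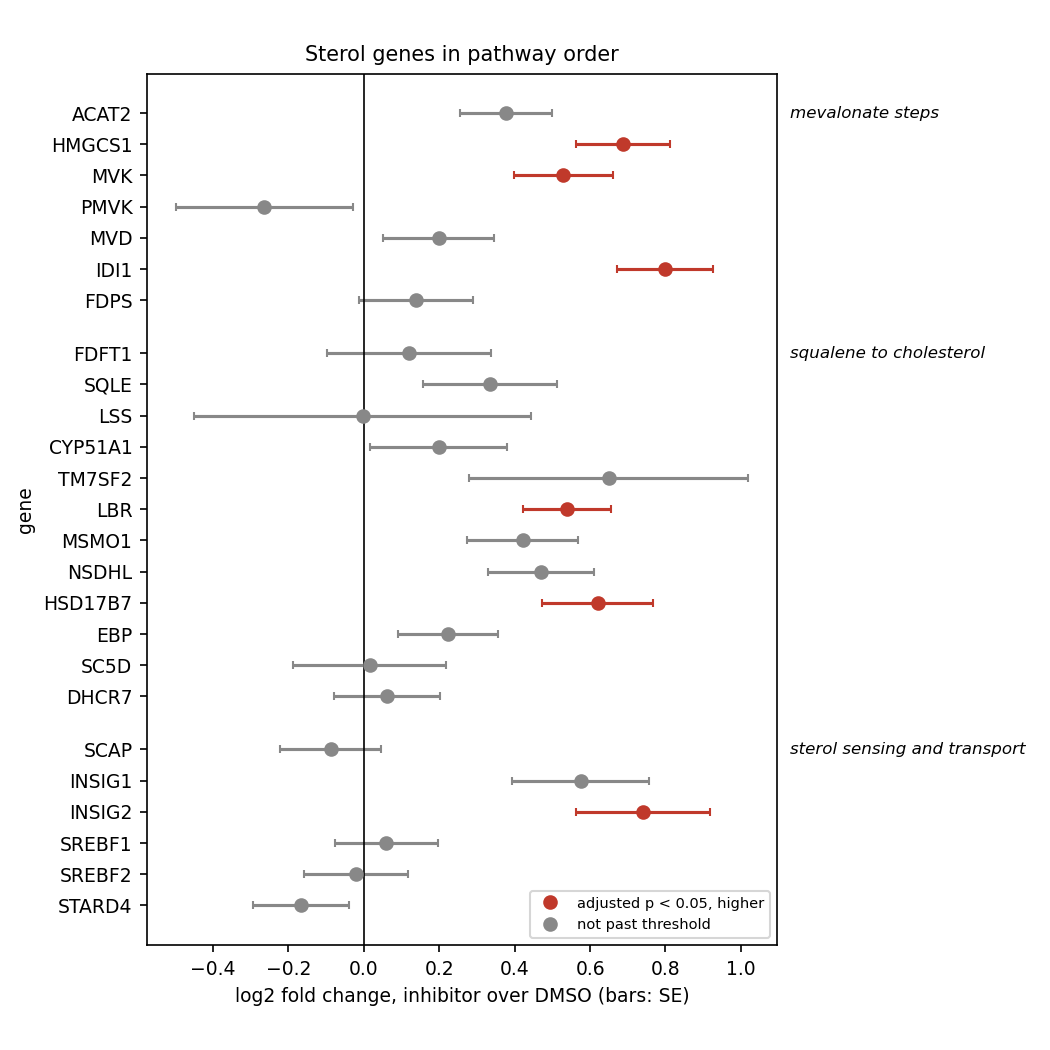
Log2 fold change of inhibitor over DMSO (x axis, points, with SE as bars) for the 25 sterol genes in pathway order (y axis), coloured by the edgeR call. The 6 genes past the threshold lie between 0.53 and 0.80, and LSS and TM7SF2, with few counts, have the widest bars.

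The mevalonate steps, from acetyl-CoA to the C15 isoprenoid farnesyl diphosphate, held 3 of the 6 risers. They count 7 genes, and over all tested genes 1.95% rose. IDI1, the isomerase that makes dimethylallyl diphosphate, stood at 76.9, 90.3 and 72.2 CPM in DMSO 1 to 3 and at 145, 142 and 129.6 CPM in inhibitor 1 to 3. Every inhibitor value was above every DMSO value, and the narrowest gap, between DMSO 2 and inhibitor 3, was still wide against the spread within either group. Its log2 fold change was 0.80 (SE 0.128, edgeR adjusted p = 0.00336), and 163 of the tested genes had a larger one.

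HMGCS1, the cytosolic synthase that makes HMG-CoA, was at 75.3, 88.6 and 73.4 CPM with DMSO and at 127, 121 and 135 CPM with inhibitor. The groups did not overlap, and the log2 fold change was 0.69 (SE 0.125, edgeR adjusted p = 0.00701). MVK, mevalonate kinase, was at 28.7, 26.6 and 23.3 CPM with DMSO and at 37.7, 39.4 and 36.6 CPM with inhibitor. Its groups were also apart, but closer (log2 fold change 0.53, SE 0.132, edgeR adjusted p = 0.0402). IDI1 passed whichever of the 6 libraries was left out. HMGCS1 did not pass with any 1 inhibitor library left out (adjusted p = 0.0506 to 0.0601), and MVK did not pass with any 1 of them or DMSO 2 left out (0.128 to 0.211).

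The other 4 genes of these steps did not pass. ACAT2, the cytosolic thiolase that joins 2 acetyl-CoA, was at 58.3, 67.8 and 68.9 CPM with DMSO and at 85.0, 87.0 and 81.1 CPM with inhibitor. Its groups did not overlap, yet its value of 0.38 (SE 0.123) missed the threshold (edgeR adjusted p = 0.104). The 3' end of ACAT2 overlaps that of the chaperonin gene TCP1 on the other strand, and the sources used here do not say whether counting used strand. MVD, the decarboxylase that yields isopentenyl diphosphate, was at 0.20 (SE 0.148), and FDPS, farnesyl diphosphate synthase, at 0.14 (SE 0.152). FDPS has pseudogene copies, so its count is less certain.

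PMVK, phosphomevalonate kinase, was the single gene of these steps with a fitted value below 0. It stood at 15.6, 15.5 and 7.20 CPM with DMSO and at 9.97, 11.3 and 11.1 CPM with inhibitor. DMSO 3 was lowest and the other 2 DMSO libraries highest, so the log2 fold change of -0.26 (SE 0.235) became -0.54 (SE 0.152) without DMSO 3, where PMVK fell by the same test. Summed over the 7 mevalonate genes, a sum that mixes amplicons, the inhibitor libraries held 485 to 499 CPM and the DMSO libraries 318 to 371 CPM. Such sums overlapped for squalene to cholesterol (1410 to 1516 and 1083 to 1492 CPM) and sterol sensing and transport (499 to 513 and 415 to 544). They also overlapped for the fatty acid genes (2347 to 2460 and 2251 to 2445). Over all 25 sterol genes they were apart (2408 to 2513 and 1978 to 2225), as over the efflux genes, where inhibitor was lower.

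**Figure D2:**
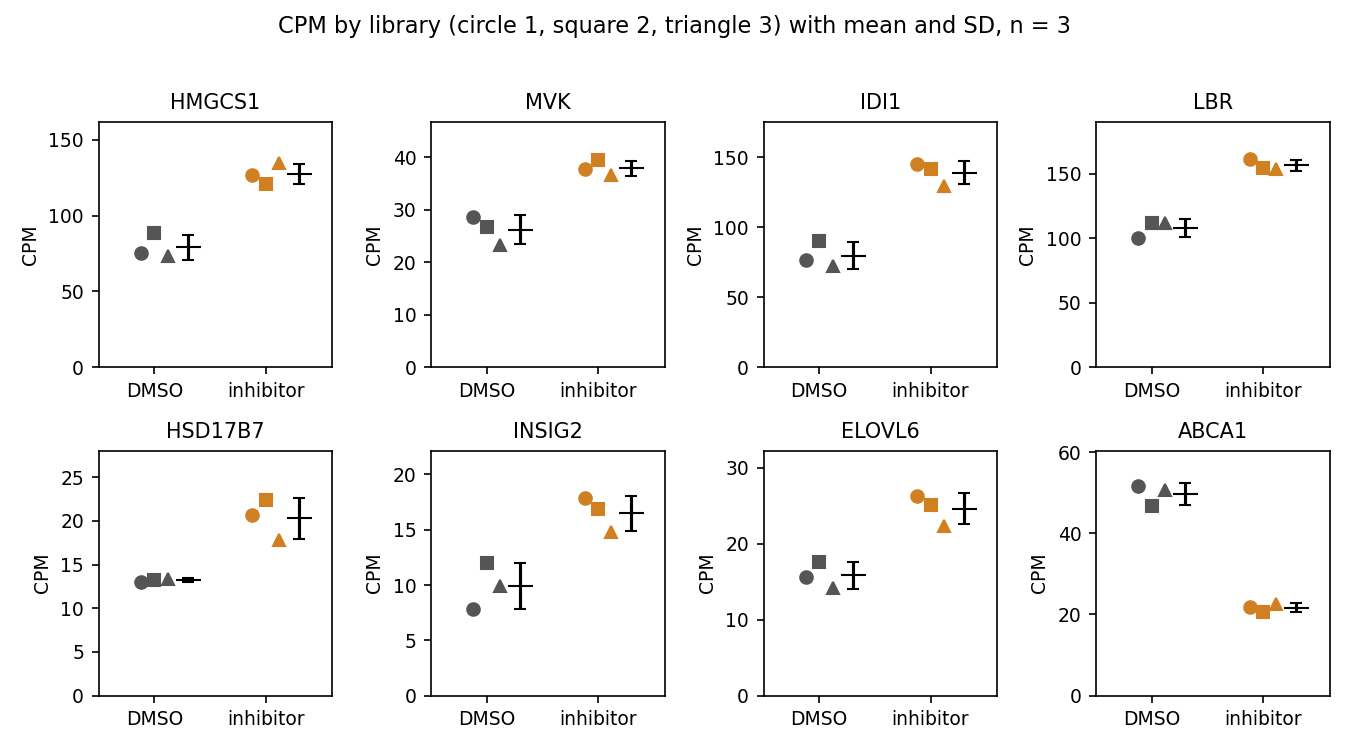
CPM in each library (y axis from 0, 1 panel per gene) for the 8 members past the threshold, with DMSO in grey, inhibitor in orange, replicates 1, 2 and 3 as circle, square and triangle, and mean and SD (n = 3) beside them. In each panel the groups are apart: 7 genes are higher with inhibitor and ABCA1 is lower.

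Promoters of the 3 mevalonate risers are shown because these genes rose and SREBPs bind near the starts of such genes with the help of NF-Y and Sp1. The 250 bases before the start were taken from RefSeq (GRCh38.p14, matched by symbol for 34 of the 39 members, all but ACAT2, FDFT1, SQLE, FASN and ABCG1), while the submitters' processing notes name hg19 for the counts. Capitals mark 3 exact motifs searched on both strands: the sterol regulatory element TCACNCCAC, the NF-Y box CCAAT and the Sp1 box GGGCGG. HMGCS1 is shown from chr5:43313413-43313662 (minus strand), MVK from chr12:109573544-109573793 (plus strand) and IDI1 from chr10:1056705-1056954 (minus strand).
HMGCS1: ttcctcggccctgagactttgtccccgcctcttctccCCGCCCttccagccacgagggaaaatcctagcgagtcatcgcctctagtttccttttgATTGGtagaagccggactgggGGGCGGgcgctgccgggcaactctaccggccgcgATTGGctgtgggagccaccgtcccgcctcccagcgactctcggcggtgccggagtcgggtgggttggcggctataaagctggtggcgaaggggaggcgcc
MVK: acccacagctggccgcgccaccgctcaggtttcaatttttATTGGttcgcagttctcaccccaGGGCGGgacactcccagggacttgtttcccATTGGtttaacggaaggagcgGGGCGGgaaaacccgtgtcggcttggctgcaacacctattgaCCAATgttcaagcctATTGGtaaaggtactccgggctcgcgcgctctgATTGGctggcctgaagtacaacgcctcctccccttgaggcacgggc
IDI1: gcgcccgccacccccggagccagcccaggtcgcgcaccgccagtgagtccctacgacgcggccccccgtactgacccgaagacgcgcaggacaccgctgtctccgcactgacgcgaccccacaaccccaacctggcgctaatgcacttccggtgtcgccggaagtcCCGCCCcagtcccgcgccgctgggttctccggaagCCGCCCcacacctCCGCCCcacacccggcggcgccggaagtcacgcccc
The HMGCS1 window held 2 NF-Y boxes and 2 Sp1 boxes, the MVK window 5 and 2, and the IDI1 window 3 Sp1 boxes and no NF-Y box. Among the other members that rose, the LBR window held neither box and the HSD17B7 window 1 of each. INSIG2 and ELOVL6 had 1 Sp1 box each and no NF-Y box. Of members that did not pass, some held NF-Y boxes, such as NSDHL with 5 and MSMO1 with 4, and others, such as PMVK, held none. Whether the boxes bear on the changes was not tested. Among the 34 matched members 21 windows held an NF-Y box and 30 an Sp1 box, against 33% and 42.3% of the windows of 27305 RefSeq genes of all types. Those windows were not limited to protein-coding or tested genes, so the shares do not compare the members with like genes. The sterol regulatory element in these exact letters was in 1 member window and in 0.875% of all windows. These matches are letters in a window and not measured binding.

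The steps from squalene to cholesterol held 2 risers among 12 genes, LBR and HSD17B7, against 1.95% of all tested genes. LBR is a C14 sterol reductase and also the lamin B receptor of the inner nuclear membrane. It was at 100.0, 112 and 112 CPM with DMSO and at 162, 155 and 154 CPM with inhibitor. The groups were well apart (log2 fold change 0.54, SE 0.116, edgeR adjusted p = 0.0192). TM7SF2, the other C14 sterol reductase, had only 33 counts in the DMSO group and 49 in the inhibitor group, and its log2 fold change of 0.65 (SE 0.37) did not pass.

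HSD17B7, the 3-ketosteroid reductase of the C4 demethylation steps, was at 12.98, 13.24 and 13.40 CPM with DMSO and at 20.7, 22.4 and 17.8 CPM with inhibitor. The DMSO values were nearly equal and all below the inhibitor values (log2 fold change 0.62, SE 0.147, edgeR adjusted p = 0.0326). Its pseudogene copy HSD17B7P2, looked up after the values were seen, had 1 count in all 6 libraries together, though reads of near-identical copies cannot be parted with certainty. LBR did not pass with any 1 inhibitor library or DMSO 2 left out (adjusted p = 0.0812 to 0.14), and HSD17B7 passed without DMSO 3 alone of the 6 libraries (0.0529 to 0.205 in the other 5).

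NSDHL and MSMO1, the enzymes that act with HSD17B7 in C4 demethylation, had groups that did not overlap but did not pass. NSDHL was at 28.8, 37.5 and 34.0 CPM with DMSO and at 42.9, 51.5 and 44.5 CPM with inhibitor (log2 fold change 0.47, SE 0.141, edgeR adjusted p = 0.081). MSMO1 was at 139, 135 and 191 CPM with DMSO and at 195, 232 and 194 CPM with inhibitor, so that DMSO 3 lay just under the lowest inhibitor value (0.42, SE 0.147, adjusted p = 0.127).

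FDFT1, squalene synthase, and CYP51A1, the lanosterol C14 demethylase, had other calls without DMSO 3. FDFT1 was at 180.3, 222 and 388 CPM with DMSO and at 326, 276 and 256 CPM with inhibitor. CYP51A1 was at 264, 306 and 491 CPM with DMSO and at 390.4, 427 and 398 CPM with inhibitor. In both genes DMSO 1 and DMSO 2 lay under, and DMSO 3 above, all inhibitor values, and the log2 fold changes were 0.12 (SE 0.217) for FDFT1 and 0.20 (SE 0.183) for CYP51A1. Without DMSO 3 they were 0.49 (SE 0.111) and 0.49 (SE 0.0999), and both rose by the same test. Neither passed with another DMSO library left out. FDFT1 was then at -0.098 (SE 0.18) without DMSO 1 and 0.010 (SE 0.249) without DMSO 2. CYP51A1 was at 0.019 (SE 0.159) and 0.10 (SE 0.21) in the same order. ACAT2, MSMO1, NSDHL and INSIG1 also rose without DMSO 3, at 0.41 (SE 0.108), 0.58 (SE 0.105), 0.47 (SE 0.127) and 0.36 (SE 0.112). INSIG1 rose without DMSO 1 as well, at 0.80 (SE 0.158).

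**Figure D3:**
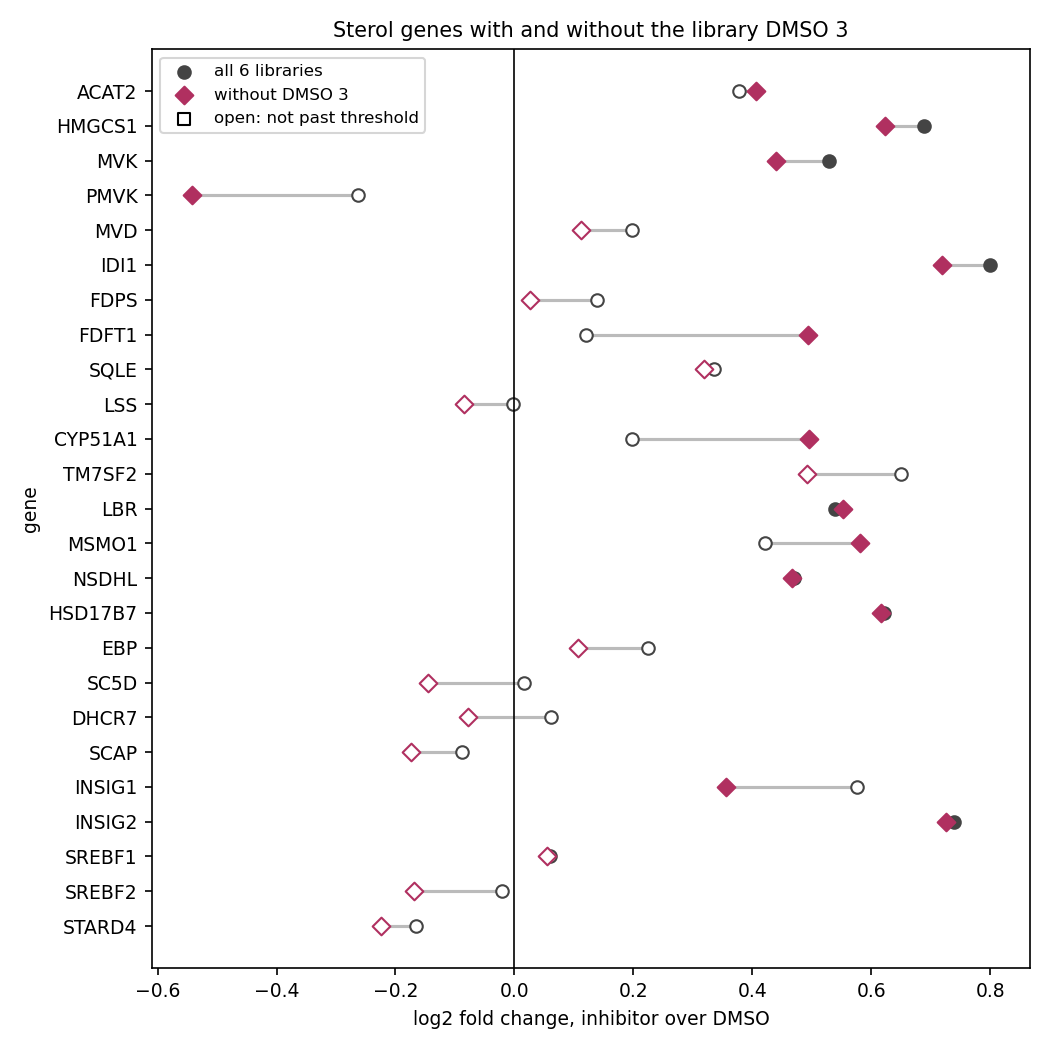
Log2 fold change of inhibitor over DMSO (x axis) for the 25 sterol genes (y axis), with all 6 libraries (grey circles) and without DMSO 3 (red diamonds), filled where the edgeR call was made. The widest moves are those of FDFT1, from 0.12 to 0.49, CYP51A1, from 0.20 to 0.49, and PMVK, from -0.26 to -0.54.

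Over the 37 tested members, DMSO 3 was the lowest DMSO library in 21 and the highest in 8, against the lowest in 4617 and the highest in 4625 of all 11216 tested genes. The transcript GC content of the tested members ran from 37.2% to 65.3%. With each library's GC trend removed, 7 sterol genes rose and none fell, NSDHL joining the 6, and FDFT1 and CYP51A1 did not pass. Calls over all genes grew too, to 369 higher and 351 lower of 11093, from 219 and 215 of 11216. What set DMSO 3 apart was not tested.

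The other genes between squalene and cholesterol were not called. SQLE, squalene epoxidase and a rate-limiting enzyme of the pathway, was at 12.3, 20.1 and 16.1 CPM with DMSO and at 20.4, 22.1 and 18.6 CPM with inhibitor, with an overlap through DMSO 2 (log2 fold change 0.34, SE 0.177). EBP, the sterol isomerase, was at 0.22 (SE 0.132), SC5D, the C5 desaturase, at 0.02 (SE 0.203), and DHCR7, which reduces 7-dehydrocholesterol, at 0.06 (SE 0.14). For DHCR7 the 95% interval of the log2 fold change ran from -0.24 to 0.36, so a change of the size fitted for IDI1 lay outside it. LSS, lanosterol synthase, had 36 and 34 counts in the DMSO and inhibitor groups. At this depth its interval of -0.96 to 0.95 held changes of the size fitted for IDI1 in either direction. A fall of the size fitted for ABCA1, -1.20, lay outside it.

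Among the genes that sense sterol, INSIG2 rose. It was at 7.82, 11.9 and 9.91 CPM with DMSO and at 17.9, 16.8 and 14.8 CPM with inhibitor, with no overlap (log2 fold change 0.74, SE 0.178, edgeR adjusted p = 0.0341). INSIG2 passed without DMSO 2 or DMSO 3 but not with any 1 of the other 4 libraries left out (adjusted p = 0.0766 to 0.185). INSIG1, itself a known SREBP target, was at 86.3, 66.8 and 45.6 CPM with DMSO and at 94.8, 104 and 98.0 CPM with inhibitor. Its inhibitor values were all higher, but the DMSO values were spread over a wide range, and its value of 0.58 (SE 0.182) did not pass (edgeR adjusted p = 0.0951).

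The genes of the transcription factors and their escort showed values near 0. SREBF2, which encodes the SREBP that mainly drives sterol genes, was at 162, 149 and 114 CPM with DMSO and at 146, 137 and 135 CPM with inhibitor (log2 fold change -0.02, SE 0.138). SREBF1, which encodes the SREBPs of fatty acid synthesis, was at 0.06 (SE 0.137), and SCAP at -0.09 (SE 0.134). STARD4, a cytosolic sterol carrier gene, was at -0.17 (SE 0.128). The 95% intervals were -0.32 to 0.28 for SREBF2, -0.23 to 0.35 for SREBF1 and -0.38 to 0.20 for SCAP. These are transcript levels, and SREBP cleavage and protein were not measured.
The SREBF2 window is shown because it alone among the matched members held the sterol regulatory element in the letters searched, in capitals with 1 NF-Y box and 2 Sp1 boxes (chr22:41832855-41833104, plus strand, GRCh38.p14, RefSeq).
SREBF2: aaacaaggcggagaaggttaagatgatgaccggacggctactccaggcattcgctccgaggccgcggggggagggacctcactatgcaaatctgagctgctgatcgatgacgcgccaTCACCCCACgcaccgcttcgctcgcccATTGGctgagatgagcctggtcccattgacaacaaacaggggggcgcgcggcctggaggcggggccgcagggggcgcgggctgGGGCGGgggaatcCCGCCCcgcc

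ELOVL6 was the only fatty acid gene that passed. Of 10 members 9 were tested, 1 rose and none fell by edgeR, DESeq2 and limma-voom, against 1.95% and 1.92% of all tested genes by edgeR, and the median log2 fold change was 0.000223. No other fatty acid gene had an unadjusted p under 0.05. ELOVL6, the elongase that extends C16 fatty acids, was at 15.6, 17.7 and 14.2 CPM with DMSO and at 26.3, 25.1 and 22.4 CPM with inhibitor. The groups were apart (log2 fold change 0.63, SE 0.145, edgeR adjusted p = 0.0276). It did not pass with any 1 inhibitor library or DMSO 2 left out (adjusted p = 0.0665 to 0.173).

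The core enzymes of fatty acid synthesis did not pass. ACLY, which makes cytosolic acetyl-CoA from citrate, was at 0.02 (SE 0.109, 95% interval -0.22 to 0.25). ACACA, acetyl-CoA carboxylase, was at 0.15 (SE 0.123), with inhibitor values of 34.4, 34.1 and 34.3 CPM just above the DMSO values of 32.2, 31.0 and 29.7 CPM. FASN, fatty acid synthase, was at -0.10 (SE 0.153), with 235, 244 and 167 CPM under DMSO and 225, 174 and 206 CPM under inhibitor.

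The desaturases and the second elongase did not pass either. SCD, stearoyl-CoA desaturase, was at 898, 791 and 713 CPM with DMSO and at 871, 806 and 893 CPM with inhibitor, with full overlap (0.10, SE 0.116). ELOVL5, FADS1 and FADS2, which lengthen and desaturate polyunsaturated fatty acids, were at 0.00 (SE 0.108), 0.00 (SE 0.123) and -0.01 (SE 0.119). Their 95% intervals lay between -0.27 and 0.26, so a change as large as that of ELOVL6 was outside each of them.

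ACSL3, an acyl-CoA synthetase gene, was at 74.6, 110.1 and 155 CPM with DMSO and at 98.8, 101 and 92.3 CPM with inhibitor. The DMSO values lay on both sides of the inhibitor values (log2 fold change -0.22, SE 0.198). ACSS2, which makes acetyl-CoA from acetate, had 5 counts in the inhibitor group, none in the DMSO group, and was not tested. Its ratio of inhibitor over DMSO has a 95% counting interval that starts at 0.964 and has no upper end, so no difference was shown at this depth.

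**Figure D4:**
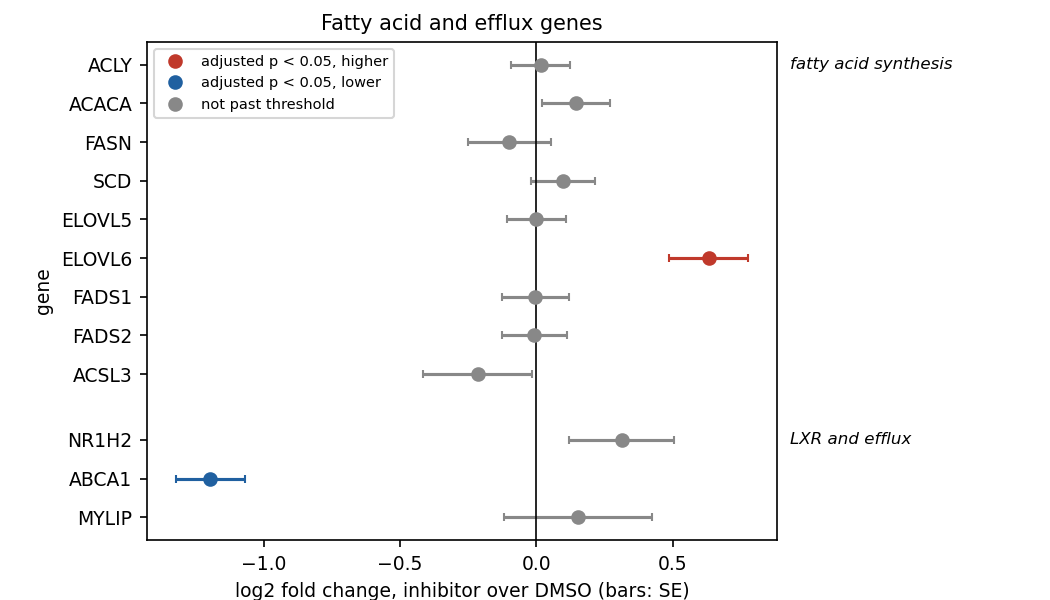
Log2 fold change of inhibitor over DMSO (x axis, points, with SE as bars) for the 9 tested fatty acid genes and the 3 tested LXR and efflux genes (y axis), coloured by the edgeR call. ELOVL6 at 0.63 and ABCA1 at -1.20 are the 2 genes past the threshold.

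ABCA1 had the widest difference of all 37 tested members. The transporter it encodes loads cholesterol and phospholipid onto lipid-poor apolipoprotein A-I, and its gene is a classic LXR target. It was at 51.6, 46.7 and 50.8 CPM in DMSO 1 to 3 and at 21.8, 20.6 and 22.7 CPM in inhibitor 1 to 3. Both groups were tight and far apart, and DMSO 3 lay within its group here. The log2 fold change was -1.20 (SE 0.128, edgeR adjusted p = 0.000115), a fold of 0.437 with a 95% interval of 0.361 to 0.528. Of the 11216 tested genes, 47 had a lower log2 fold change and 20 a smaller p. ABCA1 fell whichever of the 6 libraries was left out and under each of the 10 other settings tried, between -1.24 and -1.13.

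Its promoter window is shown because ABCA1 is the member that moved furthest (chr9:104928156-104928405, minus strand, GRCh38.p14, RefSeq), with 3 Sp1 boxes in capitals.
ABCA1: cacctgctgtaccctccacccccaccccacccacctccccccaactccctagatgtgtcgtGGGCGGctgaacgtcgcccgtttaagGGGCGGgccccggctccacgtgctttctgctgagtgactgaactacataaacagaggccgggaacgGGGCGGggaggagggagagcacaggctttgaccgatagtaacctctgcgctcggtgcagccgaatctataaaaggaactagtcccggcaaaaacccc
No NF-Y box and no sterol regulatory element in the letters searched were in this window. Binding elements of LXR were not among the motifs searched.

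The other LXR genes did not pass. Of the 3 tested, 1 fell and none rose, against 1.92% and 1.95% of all tested genes. NR1H2, which encodes LXR-beta, was at 37.3, 41.9 and 21.4 CPM with DMSO and at 42.6, 41.9 and 41.2 CPM with inhibitor. DMSO 3 lay far below the other 5 libraries, and the fitted value of 0.31 (SE 0.192) was 0.07 (SE 0.115) without it. MYLIP, an LXR-induced ubiquitin ligase gene that directs lipoprotein receptors to degradation, had 91 and 96 counts in the DMSO and inhibitor groups and a log2 fold change of 0.15 (SE 0.27). ABCG1, a second efflux transporter gene, had no counts in any library, where a count of 0 allows up to 0.228 to 0.338 CPM (3 counts per library).

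**Figure D5:**
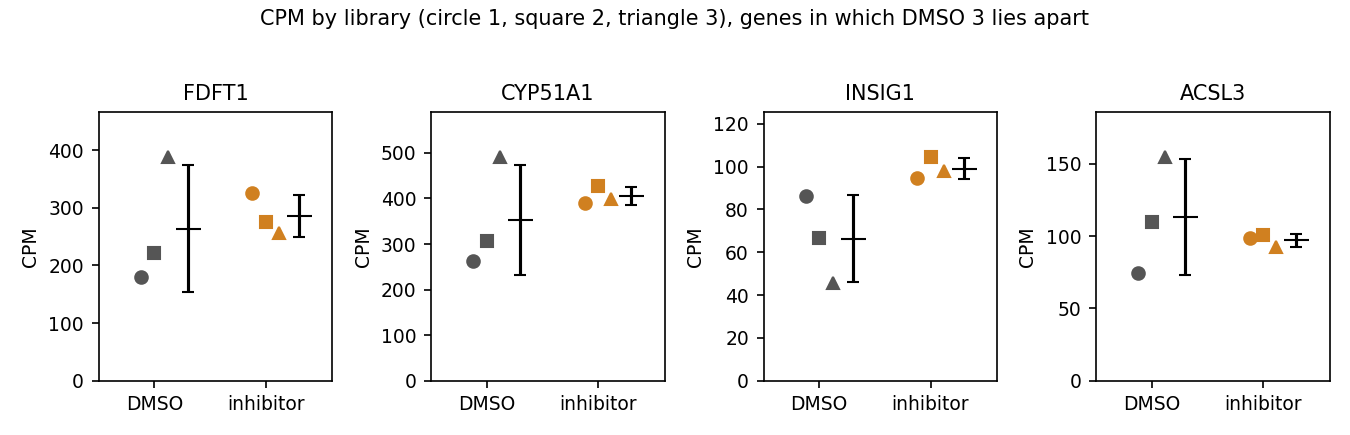
CPM in each library (y axis from 0) for FDFT1, CYP51A1, INSIG1 and ACSL3, with symbols and colours as in the plot of called genes. They were chosen after their values were seen, as members in which DMSO 3 is the highest or the lowest library. In INSIG1 (86.3, 66.8 and 45.6 CPM in DMSO 1 to 3) and ACSL3 (74.6, 110.1 and 155 CPM) DMSO 1 lies about as far from DMSO 2 as DMSO 3 does. PMVK and NR1H2, in which DMSO 3 is also the lowest library, are not shown. In FDFT1, CYP51A1 and ACSL3 DMSO 3 (grey triangle) is the highest library, at 388, 491 and 155 CPM, and in INSIG1 the lowest, at 45.6 CPM.

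Other genes of the pathway were taken from lists of branch enzymes, SREBP handling, sterol storage and fatty acid supply. Of 10 isoprenoid branch genes, 1 rose and none fell (median log2 fold change 0.16), against 1.95% and 1.92% of all tested genes. Without DMSO 3 the counts were 2 and none, against 10.8% and 11.1%. PDSS1, which makes the side chain of coenzyme Q, was at 10.0, 8.30 and 8.78 CPM with DMSO and at 13.5, 16.6 and 12.4 CPM with inhibitor (0.65, SE 0.17, edgeR adjusted p = 0.0496). It passed without DMSO 1 or DMSO 3 but not with any 1 of the other 4 left out (adjusted p = 0.0946 to 0.282). Nor did it pass by limma-voom (0.0515), with DESeq2 size factors (0.0523), with a mean count of at least 50 (0.053) or with a replicate block (0.0711), while DESeq2 called it higher (0.0381). None of 7 tested genes of SREBP processing and degradation passed by edgeR, DESeq2 or limma-voom, none had an unadjusted p under 0.05, and the median was 0.13, while 3 were higher without DMSO 3 (10.8% of all tested genes).

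Among 11 tested genes of sterol storage and trafficking edgeR called none, with 2 under 0.05 before adjustment (19.5% of all tested genes), limma-voom called none and DESeq2 1 (median 0.01). Without DMSO 3 the edgeR counts were 3 higher and 1 lower (10.8% and 11.1% of all tested genes). The gene nearest the threshold, TMEM97, a sterol-regulated membrane protein gene chosen here after its values were seen, was at 12.6, 11.8 and 12.4 CPM with DMSO and at 21.6, 17.5 and 16.0 CPM with inhibitor (0.59, SE 0.157, edgeR adjusted p = 0.0545). Of 14 tested genes of fatty acid supply and elongation, 1 rose and none fell (median 0.05), against 1.95% and 1.92% of all tested genes. Without DMSO 3 the counts were 3 and 1, against 10.8% and 11.1%. HACD3, a dehydratase of the elongation cycle, was at 61.9, 67.6 and 64.3 CPM with DMSO and at 95.2, 99.8 and 104 CPM with inhibitor, clear of each other (0.62, SE 0.117, edgeR adjusted p = 0.00876). HACD3 passed with any 1 DMSO library left out but not with any 1 inhibitor library left out (adjusted p = 0.0543 to 0.0798).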

How the data were processed

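Per the labels' protocols, RNA from HT-1080 cells was counted with the human whole-transcriptome amplicon panel of Ion AmpliSeq, and per the series' design text an Ion Torrent Proton was the sequencer. The counts were deposited by the authors as whole numbers per gene symbol and library, not normalized. HTSeq, DESeq2 1.20.0 and hg19 stand in the submitters' processing notes with no role given, and an aligner is not named there. No molecular identifiers are named, so intervals cover counting error or replicate spread only.

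Groups and replicate numbers came from the sample titles. Genes were kept by filterByExpr (minimum count 10, minimum total 15), scaled by TMM and tested with edgeR 4.0.16 in R 4.3.3 (quasi-likelihood, Benjamini-Hochberg over 11216 genes, threshold 0.05). An SE is the absolute log2 fold change over the square root of F. Alternatives used DESeq2 1.42.0, limma 3.58.1 (voom), other scaling and filters, a replicate block, removal of GC trends (transcript GC matched for 98.9% of tested genes) and leaving out each library. The edgeR, DESeq2 and limma fits were tested on simulated counts. Those counts held no GC trend and no library set apart from its group, so they do not cover these features of the data.

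Members and lists were chosen with earlier results of these data known. Named genes are all members, other pathway genes past the threshold, and marker genes that check the cell type; TMEM97, LPCAT3, DGAT2 and the copy HSD17B7P2 were named after their values were seen.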

Additional observations from a re-analysis of the deposited data

How the results depend on the processing

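Over all genes, 219 were higher and 215 lower. The counts were 336 higher with library totals only (67.3% of calls higher, against 50.5%), 395 and 436 with no filter on low counts, 1387 and 1219 with library quality weights, 369 and 351 with the GC trend removed, and 368 and 353 with the GC trend removed and a replicate block. Leaving out 1 library gave 38 to 1227 higher and 61 to 1269 lower. The 6 higher sterol genes became 12, with 1 lower, under library quality weights, and leaving out 1 library gave 1 to 12 higher and 0 to 1 lower. The single higher fatty acid gene gave 0 to 1, and the efflux count of 1 lower held in each setting. The cause was not tested. With a replicate block 159 genes were higher and 168 lower, and 4 sterol genes were higher, MVK and HSD17B7 missing the threshold (edgeR adjusted p = 0.0664 and 0.056). Same-numbered libraries did not deviate together (correlations of -0.0787, -0.0448 and -0.119), and no label says that the numbers pair cultures. No member that passed in the main comparison or under an alternative had the opposite sign in the other. LSS, TM7SF2 and ACSS2 are limited by depth.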

Other observations

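Genes that build glycerolipids from fatty acids were also examined. Of the 11 genes edgeR and limma-voom called none and DESeq2 called 1, which was lower, as was 1 by edgeR without DMSO 3. Only 1 gene had p under 0.05 before adjustment, against 19.5% of all tested genes, and the median log2 fold change was -0.06. The gene nearest the threshold was LPCAT3, which encodes a phospholipid-remodelling acyltransferase and was chosen after its values were seen. LPCAT3 was at 33.6, 34.6 and 29.9 CPM with DMSO and at 23.0, 24.2 and 24.0 CPM with inhibitor, with no overlap between the groups. Its log2 fold change was -0.46 (SE 0.13, edgeR adjusted p = 0.0629), and over the alternatives the adjusted p ran from 0.000986 to 0.256. DGAT2, which makes triglyceride and was also chosen after its values were seen, was at 6.49, 5.18 and 5.74 CPM with DMSO and at 7.51, 7.04 and 8.01 CPM with inhibitor (0.37, SE 0.179, adjusted p = 0.273).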
